A study of Rattus norvegicus with 39 samples.

Results

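The genes described here encode molecular chaperones and immunophilins, measured in the CA1 field of the hippocampus of rats kept at different levels of corticosterone. Members were all probe sets with a single gene symbol that began with Hsp, Dnaj, Pdia or Fkbp, or with Cct and a digit, or that was Ppia, Ppib, Ppid, Stip1, Ptges3, Canx or Calr. A probe set is a group of short array probes for the same transcript. The rule found 43 of the 4736 genes with such a symbol, measured by 82 of the 8740 probe sets on the array. Of these, 77 probe sets of 40 genes passed a filter on dim probe sets and were tested. The 5 that did not pass were probe sets of Hspa1l, Hspa2, Hspa5, Hspa9 and Dnajc17, and other probe sets of Hspa5 and Hspa9 did pass.

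RNA of CA1 tissue from 39 male Fisher 344 rats was measured on Affymetrix arrays, 1 animal per array, at 18 months of age. In 3 of the 4 groups the adrenal glands had been removed, and corticosterone, the main glucocorticoid of the rat, was replaced by a slow-release pellet for 3 months. The injected group (n = 10) had a 25 mg pellet and, late in the study, 4 daily injections of 5 mg corticosterone. IntermediateCORT animals (n = 9) carried a 200 mg pellet, LowCORT animals (n = 10) a 25 mg pellet, and Sham animals (n = 10) were intact, with an inert pellet. The injected and LowCORT animals drank saline with sucrose throughout, so the fluid differs along with the steroid dose. Every animal without adrenals had also lost the other adrenal hormones. The comparisons ask which transcripts of CA1 follow the glucocorticoid level.

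Chaperones help proteins reach and keep their folded shape. Hsp90 holds the glucocorticoid and mineralocorticoid receptors in a form that can bind hormone, after Hsp70 and a J-domain partner have loaded them and Stip1 has handed them on, while Ptges3 and the immunophilins Fkbp4 and Fkbp5 complete the mature complex. In the endoplasmic reticulum Hspa5, Hsp90b1, the disulfide isomerases and the lectins calnexin and calreticulin fold membrane and secreted proteins. The hippocampus is rich in both corticosteroid receptors, and Fkbp5 is a well-known target of them.

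No member passed the test for a change with the corticosterone regimen. Of the 77 probe sets tested, 0 rose and 0 fell at an adjusted p under 0.05 in any of the 6 comparisons, by limma with Benjamini-Hochberg adjustment over all 6118 probe sets. Over all probe sets the share called was 0.343% for injected against LowCORT, 2.14% for IntermediateCORT against LowCORT and 1.68% for LowCORT against Sham. It was 0.229% for injected against Sham, 0.196% for injected against IntermediateCORT and 0.0163% for IntermediateCORT against Sham. The moderated F test over the 4 groups called 0 members, beside 2.27% of all probe sets. The smallest adjusted p of a member was 0.281, for Hsp90ab1 in injected against IntermediateCORT animals.

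Members were also few among the smaller p-values. An unadjusted p under 0.05 was reached by 2 members (2.6%) in LowCORT against Sham, beside 13.6% of all probe sets. It was reached by 6 members (7.79%) in IntermediateCORT against LowCORT, beside 11.9% of all, and by 1 member (1.3%) in injected against LowCORT, beside 7.37%. In IntermediateCORT against Sham the share was 3.9% of members and 4.22% of all, and in injected against Sham 0% and 5.95%. In injected against IntermediateCORT it was 9.09% of members and 11.4% of all. In the F test 1 member, a probe set of Hspb1, stood beside 11.8% of all. In each of the 6 comparisons the members' share lay below that of all probe sets, without a test of that difference. The member medians lay between −0.03 and 0.02 on the log2 scale, where a difference of 1 is a doubling, and those of all probe sets between −0.01 and 0.02.

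**Figure D1:**
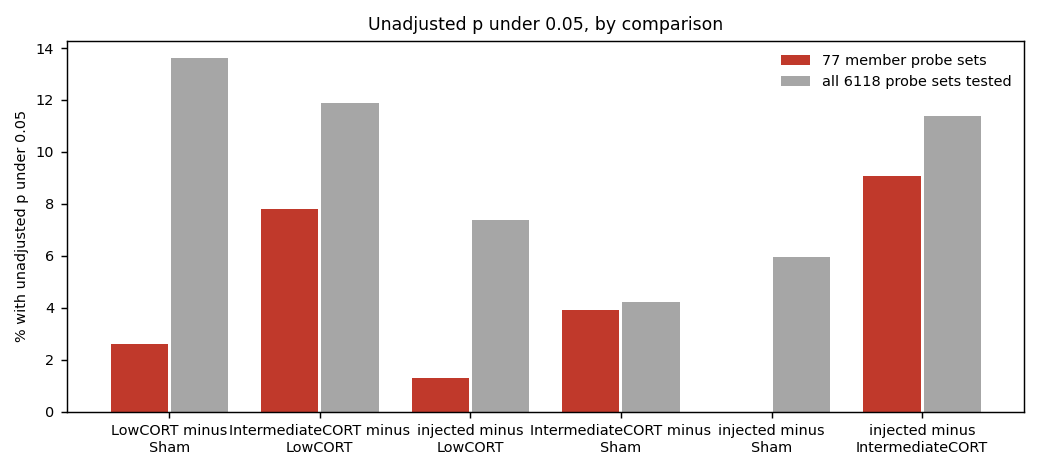
Percent of probe sets with an unadjusted p under 0.05 in each of 6 comparisons, for the 77 member probe sets (red) and all 6118 probe sets tested (grey). The member bar is the lower of the pair in every comparison, from 0% to 9.09% against 4.22% to 13.6%.

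The precision of the arrays limits what these counts can show, and differed among members. The median SD within groups was 0.23 log2 units over the members and 0.16 over all probe sets, so the members were noisier than most. The 95% interval of a difference lay wholly within ±0.5 log2 units, a change of 1.41-fold either way, for 64 to 68 of the 77 members in each comparison. It did so in all 6 comparisons for 56 members, and 35 of the 40 genes had such a probe set. For 74 members all 6 intervals lay within ±1 log2 unit, a change of 2-fold. The half-width of the interval had a median over members of 0.20 or 0.21 in each comparison, with a range of 0.08 to 0.82.

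**Figure D2:**
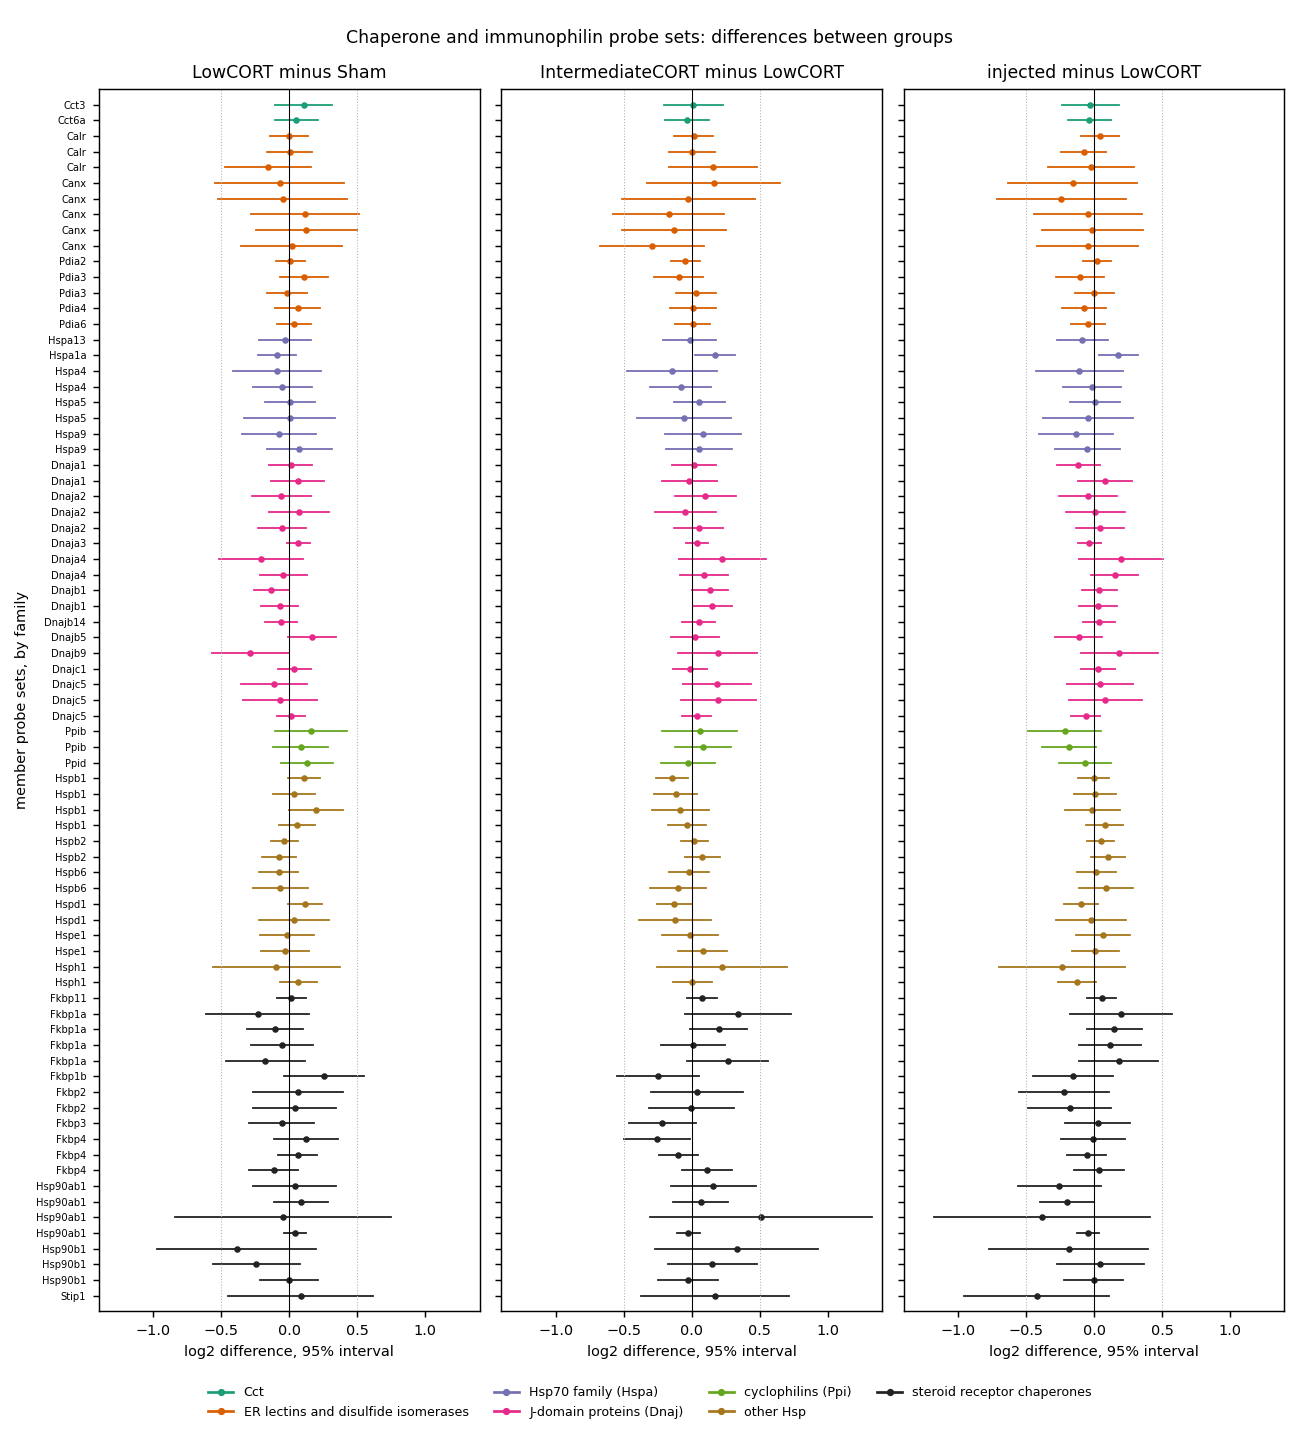
Log2 difference (point) and 95% interval (line) of each of the 77 tested probe sets, by family, for LowCORT minus Sham, IntermediateCORT minus LowCORT and injected minus LowCORT. Most intervals cross 0 and stay within the dotted lines at ±0.5, and the widest belong to Hsp90ab1, Hsp90b1, Stip1, Hsph1 and Canx.

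Sgk1 (L01624_at), a kinase gene that glucocorticoids induce, lay between 7.78 and 8.48 in injected, 8.11 and 9.70 in IntermediateCORT, 7.73 and 8.27 in LowCORT, and 8.45 and 10.25 in Sham animals. It fell by 1.50 in LowCORT against Sham (SE 0.17, adjusted p = 2.9e-07) and by 1.38 in injected against Sham (adjusted p = 6.78e-06), and rose by 0.71 in IntermediateCORT against LowCORT (adjusted p = 0.0213). Its injected minus LowCORT difference was 0.12 (adjusted p = 0.883). The array medians lay between 7.27 and 7.33. A total of 4 arrays, Sham 5, Sham 6, injected 34 and injected 35, correlated less with the others than the rest did. The array carries probe sets for the 3′ and the 5′ end of Gapdh and beta-actin, and the 3′ minus 5′ difference grows as RNA or cDNA gets shorter. For Gapdh it averaged 1.03 ± 0.60 in injected, 0.63 ± 0.21 in IntermediateCORT, 0.81 ± 0.24 in LowCORT and 0.70 ± 0.22 in Sham animals (SD). The injected median was 0.78. The Gapdh and beta-actin differences did not always go together. They were 2.41 and 0.04 on injected 35, and 1.04 and 0.17 on injected 34. On the Sham arrays they were 0.96 and 0.098 for Sham 6, and 0.55 and 0.48 for Sham 5. Among the 77 members, injected 34 was the lowest array of its group for 39 and Sham 6 for 29. Sham 6 was the highest of its group for 15 and injected 35 for 16. These counts were made for the members only, not over all probe sets.

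The steroid receptor chaperones, as the rule groups them, comprised 20 probe sets of 9 genes: Hsp90ab1, Hsp90b1, Stip1, Fkbp1a, Fkbp1b, Fkbp2, Fkbp3, Fkbp4 and Fkbp11. No probe set carried Hsp90aa1, Fkbp5 or Ptges3 as its single symbol. Hsp90b1, Fkbp2 and Fkbp11 reside in the endoplasmic reticulum and are grouped here by name. Of the 20, 0 were called in any comparison. An unadjusted p under 0.05 was reached by 5 of them (25%) in injected against IntermediateCORT, beside 11.4% of all probe sets, by 1 each in IntermediateCORT against LowCORT and against Sham, and by 0 in the other 3 comparisons. Of those 5, 3 were probe sets of Hsp90ab1, whose probe sets measure the same transcript in the same animals. The median SD of the 20 within groups was 0.31, with a range of 0.08 to 0.93.

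Hsp90ab1, the constitutive cytosolic Hsp90, had 4 probe sets. The steadiest, rc_AI236795_s_at, had a lowest, median and highest log2 value of 12.75, 12.89 and 12.93 in injected, 12.82, 12.91 and 13.04 in IntermediateCORT, 12.82, 12.95 and 13.00 in LowCORT, and 12.74, 12.88 and 13.04 in Sham animals. The 4 groups overlapped almost fully. Its LowCORT minus Sham difference was 0.04, with an interval of −0.04 to 0.12 (adjusted p = 0.689), and its injected minus LowCORT difference was −0.05, with an interval of −0.13 to 0.03 (adjusted p = 0.788). For this probe set a change of 1.41-fold lies outside the intervals of all 6 comparisons.

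The other Hsp90ab1 probe sets varied more. S45392_at had a lowest, median and highest value of 10.67, 11.86 and 12.11 in injected, 11.89, 12.11 and 12.41 in IntermediateCORT, 11.72, 11.91 and 12.34 in LowCORT, and 10.87, 11.95 and 12.39 in Sham animals. The low ends of the injected and Sham groups came from arrays that stood apart, and all groups overlapped. The injected minus IntermediateCORT difference was −0.42 (SE 0.16), at an unadjusted p of 0.0111 and an adjusted p of 0.281, and −0.23 without the 4 arrays. For rc_AI007820_s_at it was −0.26 (SE 0.10, adjusted p = 0.286), and −0.14 without them. For rc_AI008074_s_at it was −0.89, with an interval of −1.71 to −0.08 (adjusted p = 0.383), and −0.48 without them. With the Gapdh and beta-actin 3′ minus 5′ differences as covariates, it was −0.20 for S45392_at, −0.15 for rc_AI007820_s_at and −0.15 for rc_AI008074_s_at.

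Stip1 (Y15068_at), the co-chaperone that bridges Hsp70 and Hsp90, had a lowest, median and highest value of 6.34, 8.58 and 8.81 in injected, 8.60, 8.73 and 8.97 in IntermediateCORT, 8.07, 8.65 and 8.89 in LowCORT, and 6.41, 8.73 and 9.02 in Sham animals. The 4 medians lay close together, and the long low tails came from injected 34, injected 35 and Sham 6. The injected minus IntermediateCORT difference was −0.60 (SE 0.27, adjusted p = 0.389). It was −0.16 with the same covariates and −0.17 without the arrays that stood apart. The LowCORT minus Sham difference was 0.08, with an interval of −0.45 to 0.62, and −0.18 without those arrays.

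Fkbp4, an Hsp90-binding immunophilin of steroid receptor complexes, had 3 probe sets. The first, rc_AI136977_at, had a lowest, median and highest value of 7.58, 7.86 and 8.48 in injected, 7.38, 7.77 and 8.05 in IntermediateCORT, 7.48, 7.97 and 8.60 in LowCORT, and 7.59, 7.88 and 8.07 in Sham animals. The IntermediateCORT group had the lowest median and the lowest animal, and all groups overlapped. Its IntermediateCORT minus LowCORT difference was −0.25 (SE 0.12, adjusted p = 0.388). The other probe sets gave −0.10 (rc_AI136977_g_at) and 0.11 (rc_AI231547_at), so the 3 did not share a direction. With the Gapdh and beta-actin 3′ minus 5′ differences as covariates, these 2 values were −0.06 and 0.02.

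Fkbp1a, the small FK506-binding protein of the cytosol, had 4 probe sets. For D86641_at the lowest, median and highest values were 10.61, 11.59 and 12.25 in injected, 10.83, 11.62 and 12.13 in IntermediateCORT, 10.52, 11.38 and 11.99 in LowCORT, and 10.68, 11.55 and 12.04 in Sham animals. LowCORT had the lowest median in a near-complete overlap. The IntermediateCORT minus LowCORT difference was 0.34 (adjusted p = 0.528), and over the 4 probe sets of Fkbp1a it ran from 0.01 to 0.34. Of the others, rc_AA875594_s_at gave 0.20, rc_AI228738_s_at 0.27 and rc_AI176170_at 0.01. With the covariates the first 3 of these probe sets, D86641_at included, gave 0.11, 0.10 and 0.09.

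Fkbp1b (D86642_at), its close relative, is known to bind and steady the intracellular calcium release channels. Its lowest, median and highest values were 8.05, 8.51 and 9.54 in injected, 7.73, 8.55 and 8.80 in IntermediateCORT, 8.33, 8.76 and 9.16 in LowCORT, and 8.10, 8.37 and 9.06 in Sham animals. LowCORT had the highest median, and the groups overlapped. The LowCORT minus Sham difference was 0.26 (SE 0.15, adjusted p = 0.468), and the IntermediateCORT minus LowCORT difference was −0.25 (SE 0.15, adjusted p = 0.576).

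The calls of Fkbp1b and Hspb1 turned on the processing. With both 3′ minus 5′ differences as covariates Fkbp1b rose by 0.37 in LowCORT against Sham (SE 0.09, adjusted p = 0.0197) and fell by 0.35 in IntermediateCORT against LowCORT (SE 0.10, adjusted p = 0.0355). With the beta-actin difference alone, a setting added after the data were seen, the values were 0.38 (adjusted p = 0.0416) and −0.39 (adjusted p = 0.0447). With the Gapdh difference alone, added at the same point, Fkbp1b gave 0.25 (adjusted p = 0.48) and −0.24 (adjusted p = 0.636). Without the arrays that stood apart and with no covariate, the LowCORT minus Sham difference was 0.30 (adjusted p = 0.262). Its injected minus LowCORT difference was −0.31 (adjusted p = 0.197) with both covariates. The beta-actin difference averaged 0.79 ± 0.69 in injected, 0.65 ± 0.36 in IntermediateCORT, 0.93 ± 0.40 in LowCORT and 0.68 ± 0.41 in Sham animals (SD).

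The rest of this group showed smaller or noisier differences. Hsp90b1, the Hsp90 of the endoplasmic reticulum, gave for AA685903_at a lowest, median and highest value of 6.35, 7.92 and 9.15 in injected, 7.48, 8.32 and 9.15 in IntermediateCORT, 7.09, 7.91 and 9.29 in LowCORT, and 7.18, 8.43 and 9.30 in Sham animals. The groups overlapped over more than a log2 unit. The injected minus Sham difference was −0.57, with an interval of −1.16 to 0.01 (adjusted p = 0.836), while S69315_at gave −0.20 and S69316_s_at −0.01. With the covariates AA685903_at gave −0.05 and S69315_at −0.01.

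Fkbp3 (rc_AI103874_at), a nuclear FK506-binding protein, had a lowest, median and highest value of 6.89, 7.21 and 7.54 in injected, 6.48, 7.07 and 7.32 in IntermediateCORT, 6.67, 7.23 and 7.65 in LowCORT, and 6.65, 7.25 and 7.60 in Sham animals. IntermediateCORT was lowest, with overlap. The IntermediateCORT minus Sham difference was −0.27 (SE 0.12, adjusted p = 0.998). Fkbp2, of the endoplasmic reticulum, gave injected minus LowCORT differences of −0.22 (AA684963_at) and −0.18 (C06598_at), and Fkbp11 (rc_AA875098_at) one of 0.06. Without the arrays that stood apart the Fkbp2 differences turned direction, to 0.04 and 0.06, and that of Fkbp11 was 0.03.

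**Figure D3:**
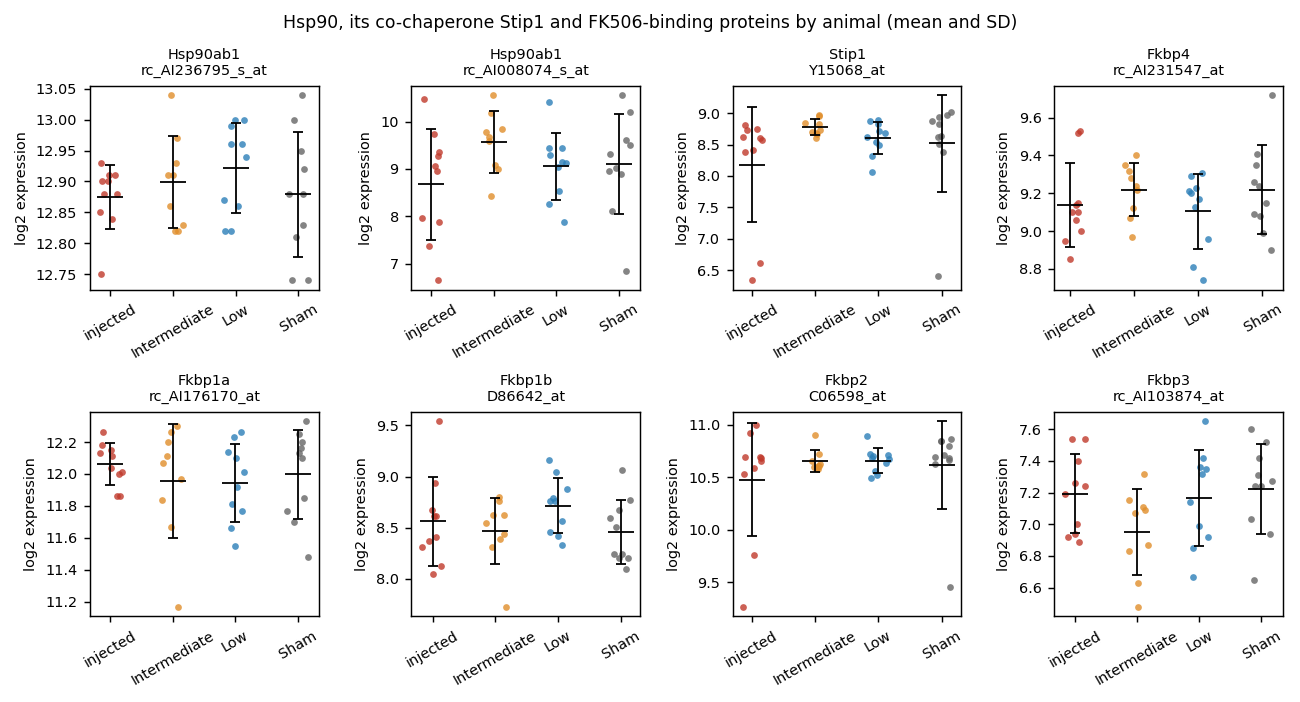
Log2 expression of 8 probe sets of Hsp90ab1, Stip1 and FK506-binding proteins in every animal, with the mean and SD of each group, injected, IntermediateCORT, LowCORT and Sham from left to right. Each vertical axis has its own range. The groups overlap in every panel, and single low animals of the injected and Sham groups stretch Stip1 and Fkbp2.

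The Hsp70 family does the first steps of folding with help from J-domain partners. Of its 8 tested probe sets, 0 passed the test. Hspa1a (Z75029_s_at), the stress-induced Hsp70, had a lowest, median and highest value of 6.42, 6.62 and 6.99 in injected, 6.48, 6.62 and 6.79 in IntermediateCORT, 6.07, 6.50 and 6.68 in LowCORT, and 6.31, 6.57 and 6.74 in Sham animals. LowCORT reached lower than the other groups. All 4 groups lay near the cut of the filter on dim probe sets, 6.28. The injected minus LowCORT difference was 0.18 (SE 0.07, unadjusted p = 0.0153, adjusted p = 0.526), 0.10 without the arrays that stood apart and 0.11 with the covariates. IntermediateCORT minus LowCORT was 0.17 (adjusted p = 0.3), 0.17 without those arrays (adjusted p = 0.121) and 0.18 with the covariates (adjusted p = 0.137). These 2 comparisons share the LowCORT animals.

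Hspa5, the Hsp70 of the endoplasmic reticulum and a main marker of its stress response, differed little. M14050_s_at had a lowest, median and highest value of 9.90, 10.21 and 10.68 in injected, 9.90, 10.38 and 10.57 in IntermediateCORT, 9.90, 10.30 and 10.45 in LowCORT, and 9.96, 10.27 and 10.48 in Sham animals. The LowCORT minus Sham difference had an interval of −0.18 to 0.19. Hspa4 (AF077354_at), a nucleotide exchange factor of Hsp70, gave −0.24 in IntermediateCORT against Sham (adjusted p = 0.998). Mitochondrial Hspa9 (S75280_s_at) gave −0.21 in injected against both IntermediateCORT and Sham animals, and Hspa13 (AF006617_at) −0.12 in injected against Sham. Without the arrays that stood apart Hspa4 gave −0.38, and Hspa9 −0.09 against IntermediateCORT and −0.18 against Sham. With the covariates the 2 values of Hspa9 were −0.003 and −0.03.

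J-domain proteins steer Hsp70 to its clients. Of the 17 tested probe sets of its 10 tested genes, 14 (82.4%) had a positive IntermediateCORT minus LowCORT difference, beside 52.8% of all probe sets, and 0 passed the test. In IntermediateCORT against Sham 14 of the 17 were positive as well, beside 2891 of all 6118 probe sets. Both comparisons share the IntermediateCORT animals. Probe sets of a gene are not independent, and these shares were not tested. Dnajb1 (rc_AA859648_at), the main Hsp40 of the heat shock response, had a lowest, median and highest value of 8.45, 8.67 and 8.89 in injected, 8.51, 8.85 and 8.94 in IntermediateCORT, 8.43, 8.67 and 8.84 in LowCORT, and 8.51, 8.84 and 8.96 in Sham animals. The medians fall into a higher pair, IntermediateCORT and Sham, and a lower pair, with overlap. The LowCORT minus Sham difference was −0.13 (SE 0.06, adjusted p = 0.357) and the IntermediateCORT minus LowCORT difference 0.14 (adjusted p = 0.413). The other Dnajb1 probe set, rc_AA945704_at, gave −0.07 and 0.15. With the covariates rc_AA859648_at gave −0.08 and 0.07.

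Dnajb5 (rc_AA891542_at), another Hsp40, gave an IntermediateCORT minus Sham difference of 0.19 (SE 0.09, adjusted p = 0.998). Mitochondrial Dnaja3 (S81433_at) gave 0.11 in the same comparison (SE 0.04, adjusted p = 0.971). Dnajb9, a J-domain protein of the endoplasmic reticulum (rc_AI011998_at), gave −0.29 in LowCORT against Sham (SE 0.14, adjusted p = 0.358), and 1 LowCORT animal lay at 5.99, against a LowCORT median of 7.69. Dnajc5 (rc_AA859806_at), the cysteine string protein of synaptic vesicles, gave −0.10 in injected against IntermediateCORT (adjusted p = 0.48). Dnaja4 (rc_AA799570_at) gave 0.15 in injected against LowCORT (adjusted p = 0.688), and 0.05 without the arrays that stood apart.

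The small heat shock proteins and the mitochondrial chaperonins formed the next group, with 14 tested probe sets. Hspb1 (M86389cds_s_at), a small heat shock protein that holds unfolded proteins, had a lowest, median and highest value of 8.87, 9.02 and 9.19 in injected, 8.74, 8.92 and 9.01 in IntermediateCORT, 8.78, 9.00 and 9.40 in LowCORT, and 8.79, 8.93 and 9.04 in Sham animals. Injected and LowCORT lay higher than the other groups, with overlap. The IntermediateCORT minus LowCORT difference was −0.14 (SE 0.06, unadjusted p = 0.02, adjusted p = 0.284), and with array weights it fell by 0.17 (adjusted p = 0.0497). The other 3 Hspb1 probe sets gave −0.12, −0.08 and −0.03 in this comparison.

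Hspd1 (X54793_at), the mitochondrial Hsp60, had a lowest, median and highest value of 10.78, 11.11 and 11.32 in injected, 10.83, 11.12 and 11.24 in IntermediateCORT, 11.02, 11.22 and 11.30 in LowCORT, and 10.87, 11.13 and 11.27 in Sham animals. The IntermediateCORT minus LowCORT difference was −0.13 (SE 0.06, adjusted p = 0.418), and −0.08 with the covariates. Hsph1 (rc_AI236601_at), an Hsp110, gave −0.12 in injected against LowCORT (adjusted p = 0.688) and −0.07 without the arrays that stood apart, and Hspb6 (rc_AI103838_g_at), a small heat shock protein, gave −0.17 in IntermediateCORT against Sham (adjusted p = 0.998). None of the 14 passed the test in any comparison.

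The lectins and disulfide isomerases of the endoplasmic reticulum, the chaperonin subunits and the cyclophilins gave no call either. Of the 13 probe sets of Calr, Canx, Pdia2, Pdia3, Pdia4 and Pdia6, 0 had an unadjusted p under 0.05 in any comparison. Pdia3 (X12355_s_at), the isomerase that works with calnexin and calreticulin, had a lowest, median and highest value of 9.77, 10.42 and 10.71 in injected, 10.09, 10.35 and 10.63 in IntermediateCORT, 10.29, 10.48 and 10.64 in LowCORT, and 10.05, 10.36 and 10.65 in Sham animals. The LowCORT group had the narrowest range, and all groups overlapped. The LowCORT minus Sham difference was 0.11 (SE 0.09, adjusted p = 0.639), and 0.06 without the arrays that stood apart. The other Pdia3 probe set, rc_AA892637_at, gave −0.06 without those arrays, so the directions differed there. Canx (rc_AI235707_g_at) gave −0.29 in IntermediateCORT against LowCORT (adjusted p = 0.605). The other Canx probe sets gave 0.16 (L18889_at), −0.02 (rc_AA893328_at), −0.17 (rc_AI010725_at) and −0.13 (rc_AI010725_g_at), so they did not share a direction. Calr (X53363cds_s_at) gave −0.18 in injected against Sham (0.03 with the covariates), and Pdia2 (rc_AI639478_at) gave 0.07 in injected against IntermediateCORT (0.04 with the covariates).

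Of the chaperonin subunits, Cct3 (rc_AA799545_at) gave 0.11 in LowCORT against Sham (adjusted p = 0.715), and 0.03 without the arrays that stood apart, and Cct6a (rc_AA875047_at) gave 0.05 (adjusted p = 0.844). Ppib, the cyclophilin of the endoplasmic reticulum, had in rc_AA818487_s_at a lowest, median and highest value of 9.12, 10.09 and 10.19 in injected, 10.11, 10.22 and 10.37 in IntermediateCORT, 9.95, 10.15 and 10.30 in LowCORT, and 9.46, 10.07 and 10.32 in Sham animals. The IntermediateCORT animals had the highest median, with overlap. The injected minus IntermediateCORT difference was −0.26 (SE 0.10, adjusted p = 0.29), and −0.11 without the arrays that stood apart. Ppid (rc_AA850781_at), an Hsp90-binding cyclophilin, gave 0.13 in LowCORT against Sham (adjusted p = 0.589), and 0.06 with the covariates.

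Within groups, some members varied with the 3′ minus 5′ differences. The median size of r, without regard to sign, was 0.241 over the members and 0.235 over all probe sets for the Gapdh difference, and 0.294 and 0.28 for that of beta-actin. It was over 0.5 with the Gapdh difference for 16.9% of members and 13.5% of all probe sets. With the beta-actin difference it was over 0.5 for 36.4% of members and 21% of all probe sets. These gaps between members and all probe sets were not tested. Correlations were computed over the 39 animals with group means removed, with 100000 permutations within groups, and adjusted over the 154 relations of 77 members with 2 measures. Against the Gapdh difference 18 members passed for both coefficients, 16 of them negative. Against the beta-actin difference 31 passed, 14 negative and 17 positive. Such counts were made for the members only, not over all probe sets. Fkbp1b stood at r = −0.714 and rho = −0.628 with beta-actin (p = 1e-05 and p = 6e-05, adjusted 0.000118 and 0.000355), at r = −0.684 without the 2 arrays farthest out in that difference, and at −0.67 without the 4 arrays that stood apart. Within groups it was −0.758 in injected, −0.952 in IntermediateCORT, −0.857 in LowCORT and −0.337 in Sham animals. A p of 1e-05 is the smallest these permutations can give.

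Probe sets of the same gene differed in this relation. Hsp90ab1 rc_AI008074_s_at had r = −0.741 and rho = −0.879 with the Gapdh difference (p = 1e-05 for both by permutation, adjusted 0.000118 and 8.56e-05), r = −0.803 without the 2 farthest arrays, and r between −0.723 and −0.884 within the groups. Hsp90ab1 rc_AI236795_s_at had r = 0.0399 and rho = 0.0964 (permutation p = 0.77 and p = 0.532, adjusted 0.836 and 0.651), and −0.0333 without the 2 farthest. For Hsp90b1, S69316_s_at had r = 0.723 and rho = 0.696 with the beta-actin difference (permutation p = 1e-05 and p = 2e-05, adjusted 0.000118 and 0.000147), and r = 0.617 without the 2 farthest arrays. For Hsp90b1 S69315_at they were r = −0.717 and rho = −0.827 (permutation p = 1e-05 for both, adjusted 0.000118 and 8.56e-05), with −0.726 without the 2 farthest. Probe sets of a gene measure the same animals, and their r, given without a test, ran from −0.374 to 0.875 for Hsp90b1 and from 0.141 to 0.985 for Fkbp1a.

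**Figure D4:**
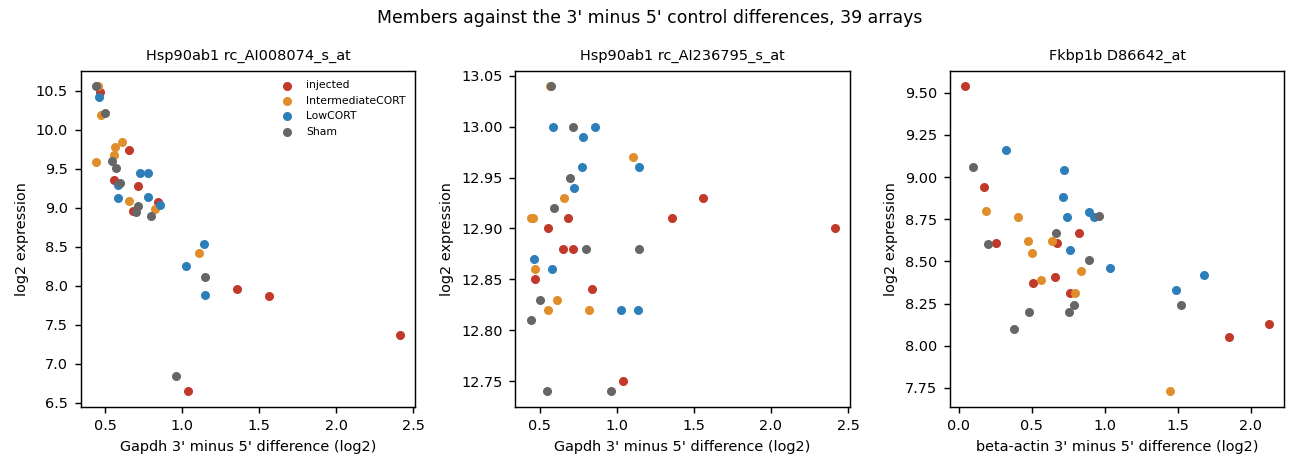
Log2 expression against the 3′ minus 5′ difference of a control transcript on each of the 39 arrays, coloured by group: 2 probe sets of Hsp90ab1 against the Gapdh difference, and Fkbp1b against the beta-actin difference. The first falls with the Gapdh difference (r = −0.741 with group means removed), the second does not (r = 0.0399), and Fkbp1b falls with the beta-actin difference (r = −0.714).

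Some pairs of members varied together from animal to animal. Over all pairs of the 6118 probe sets the median r, with group means removed, was −0.00543. Among the endoplasmic reticulum chaperones, with the probe set of highest mean for each of 11 genes, 55 pairs had a median r of 0.322. Within groups that median was 0.404 in injected, 0.0195 in IntermediateCORT, 0.367 in LowCORT and 0.178 in Sham animals, and it was 0.166 without the arrays that stood apart. Of the 55, 18 pairs passed for both coefficients after adjustment over all 91 pairs computed, 15 of them positive. Counts of passing pairs, here and for the heat shock genes below, were not made over all pairs of probe sets. Hspa5 and Pdia3 had r = 0.778 and rho = 0.784 (permutation p = 1e-05 for both, adjusted 0.00013 and 0.000227), and r = 0.738 without the 2 animals farthest out in Hspa5. Within groups r was 0.869 in injected, 0.763 in IntermediateCORT, 0.747 in LowCORT and 0.642 in Sham animals. It was 0.776 without the arrays that stood apart and 0.697 after the 3′ minus 5′ differences were removed. Hspa5 and Pdia6 had r = 0.73 and rho = 0.69 (permutation p = 1e-05 and p = 2e-05, adjusted 0.00013 and 0.000364), and 0.782 without the 2 farthest animals. Hspa5 and Calr had r = 0.626 and rho = 0.559 (permutation p = 1e-05 and p = 0.00027, adjusted 0.00013 and 0.00205), and 0.61 without the 2 farthest.

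Other pairs of this compartment were much weaker when a few arrays were left out. Ppib and Fkbp2 had r = 0.843 and rho = 0.482 (permutation p = 0.00049 and p = 0.00712, adjusted 0.00279 and 0.027), r = 0.58 without the 2 farthest animals, and −0.00929 without the 4 arrays that stood apart. Pdia4 and Fkbp2 had r = 0.802 and rho = 0.552 (permutation p = 0.00022 and p = 0.00076, adjusted 0.00143 and 0.00407), r = 0.541 without the 2 farthest, and 0.133 without those 4. Within groups Ppib and Fkbp2 had r = 0.937 in injected, −0.591 in IntermediateCORT, 0.393 in LowCORT and 0.86 in Sham animals. For Pdia4 and Fkbp2 these were 0.876, 0.577, 0.367 and 0.826. The IntermediateCORT and LowCORT groups held none of the arrays that stood apart.

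Among the cytosolic and mitochondrial heat shock genes, 36 pairs of 9 genes had a median r of 0.263, and 9 pairs passed, 8 of them positive. Hsp90ab1 and Hspd1 had r = 0.727 and rho = 0.716 (permutation p = 1e-05 for both, adjusted 0.00013 and 0.000227), r = 0.692 without the 2 farthest animals and 0.629 without the arrays that stood apart. Hspd1 and Hspe1, the barrel and lid of the mitochondrial chaperonin, had r = 0.631 and rho = 0.697 (permutation p = 7e-05 and p = 1e-05, adjusted 0.000579 and 0.000227), and 0.658 without the 2 farthest. Within groups r was 0.687 in injected, 0.822 in IntermediateCORT, 0.45 in LowCORT and 0.473 in Sham animals, and 0.389 after the 3′ minus 5′ differences were removed. The pair that passed with a negative sign was Hspb1 and Stip1, at r = −0.518 and rho = −0.645 (permutation p = 8e-05 and p = 1e-05, adjusted 0.000607 and 0.000227), with −0.542 without the 2 farthest.

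**Figure D5:**
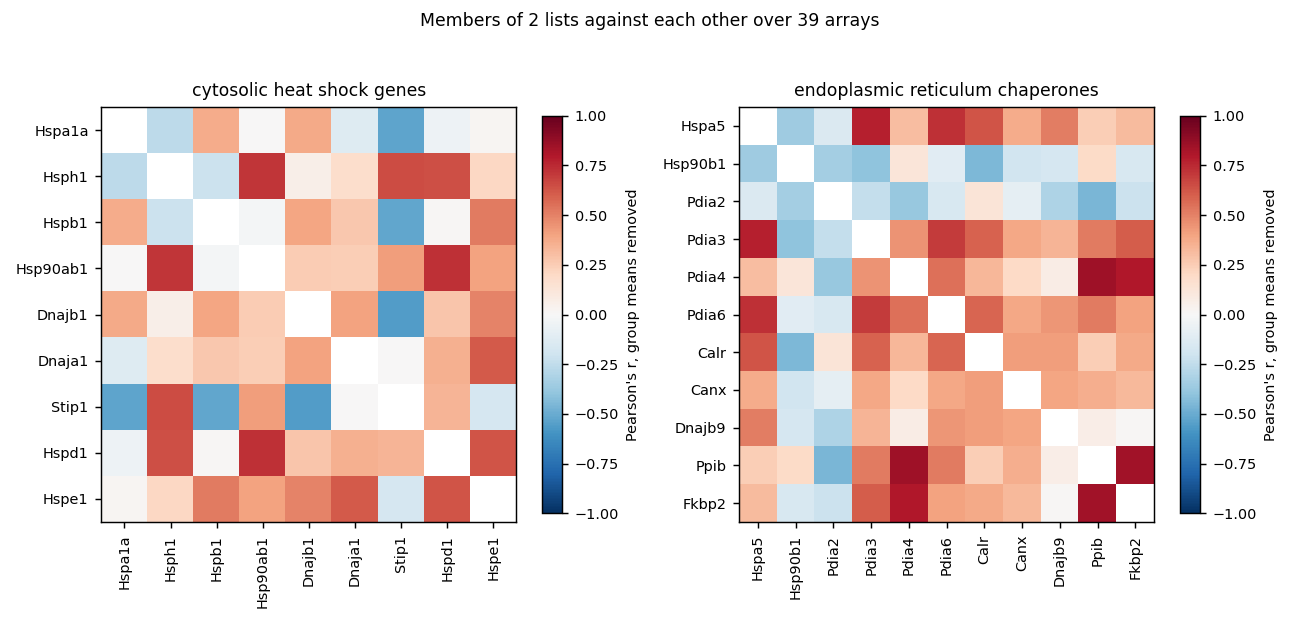
Pearson's r between members over 39 arrays with group means removed, for 9 cytosolic and mitochondrial heat shock genes (left) and 11 endoplasmic reticulum chaperones (right). Red is positive and blue negative, and the 3′ minus 5′ differences were not removed. Hspa5, Pdia3, Pdia6 and Calr form a red block on the right, and Hsp90b1 and Pdia2 are mostly blue there.

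Known response elements were searched in the 250 bases upstream of the start site of every member gene with a promoter entry in RefSeq on the rat assembly GRCr8, 38 of the 43. The promoters of Pdia3 and Pdia6, whose pairs with Hspa5 are given above, were not analysed here. The endoplasmic reticulum stress element was searched on both strands as CCAAT, 9 bases of any kind and CCACG. It occurred upstream of Hspa5, Hsp90b1, Calr and Canx, 10.5% of the 38 genes, and of 0.0657% of all 33469 promoters in the table. These 4 are shown, each from 5′ to 3′ on the strand of its gene, with the element in capitals. Hspa5 lies at chr3:38452766-38453015 on the plus strand, Hsp90b1 at chr7:23012294-23012543 on the minus strand, Calr at chr19:40213117-40213366 on the plus strand and Canx at chr10:35157858-35158107 on the minus strand.
Hspa5 promoter: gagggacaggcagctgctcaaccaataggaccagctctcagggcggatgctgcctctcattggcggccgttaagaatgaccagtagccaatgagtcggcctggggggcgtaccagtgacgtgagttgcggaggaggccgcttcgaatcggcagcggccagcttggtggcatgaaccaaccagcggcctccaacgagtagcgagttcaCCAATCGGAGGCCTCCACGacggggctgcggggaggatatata
Hsp90b1 promoter: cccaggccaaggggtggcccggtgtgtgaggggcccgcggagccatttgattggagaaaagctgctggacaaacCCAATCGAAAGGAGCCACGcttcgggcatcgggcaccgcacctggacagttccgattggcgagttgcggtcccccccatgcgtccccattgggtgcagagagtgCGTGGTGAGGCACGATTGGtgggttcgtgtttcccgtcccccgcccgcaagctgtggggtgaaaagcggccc
Calr promoter: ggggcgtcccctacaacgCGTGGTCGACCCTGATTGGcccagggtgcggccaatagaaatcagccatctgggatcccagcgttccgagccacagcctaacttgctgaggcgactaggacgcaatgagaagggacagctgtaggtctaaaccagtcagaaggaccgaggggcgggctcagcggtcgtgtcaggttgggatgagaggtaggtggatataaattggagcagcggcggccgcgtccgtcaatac
Canx promoter: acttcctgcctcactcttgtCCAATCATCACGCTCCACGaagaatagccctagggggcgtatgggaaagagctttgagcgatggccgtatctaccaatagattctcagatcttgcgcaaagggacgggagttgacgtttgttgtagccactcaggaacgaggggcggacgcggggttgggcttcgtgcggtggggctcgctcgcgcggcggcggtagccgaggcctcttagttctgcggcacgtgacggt
Hsp90b1 holds the element on both strands, and its probe set of highest mean, S69315_at, gave a negative r with Calr, at −0.448 (rho = −0.582, permutation p = 0.00729 and p = 0.00032, adjusted 0.0229 and 0.00224), and −0.434 without the 2 farthest animals. This r was −0.521 without the arrays that stood apart and −0.207 after the 3′ minus 5′ differences were removed. S69315_at itself fell with the beta-actin difference, at r = −0.717. A match of letters is a description of the window and does not show a working site.

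The heat shock element was searched on both strands as the pair GAANNTTC, and as a triplet, that pair followed after 2 bases by GAA. The triplet contains the pair, so the searches overlap. The pair occurred upstream of 23.7% of the 38 genes and 7.23% of all promoters: Dnaja1, Dnajb1, Fkbp4, Hspa9, Hspb1, Hspb6, Hspd1, Hspe1 and Hsph1. The triplet occurred upstream of Hspd1, Hspe1 and Hsph1, 7.89% of the 38 genes and 0.663% of all. A loose form of the glucocorticoid response element, GNACA and TGTNC with 3 bases between, occurred upstream of 0 of the 38 genes and 0.373% of all promoters. Hspd1 and Hspe1 face away from each other, with start sites 290 bases apart on chromosome 9, and their upstream windows share 211 bases that hold the same triplets. The Hspe1 window lies at chr9:64084077-64084326 on the plus strand and that of Hsph1 at chr12:10427118-10427367 on the plus strand. They are shown with the triplets in capitals.
Hspe1 promoter: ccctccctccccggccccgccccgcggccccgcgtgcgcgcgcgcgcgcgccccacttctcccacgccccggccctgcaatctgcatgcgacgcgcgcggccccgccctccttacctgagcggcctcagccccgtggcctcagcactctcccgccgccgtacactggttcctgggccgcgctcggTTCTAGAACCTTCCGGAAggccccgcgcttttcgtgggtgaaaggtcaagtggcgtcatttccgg
Hsph1 promoter: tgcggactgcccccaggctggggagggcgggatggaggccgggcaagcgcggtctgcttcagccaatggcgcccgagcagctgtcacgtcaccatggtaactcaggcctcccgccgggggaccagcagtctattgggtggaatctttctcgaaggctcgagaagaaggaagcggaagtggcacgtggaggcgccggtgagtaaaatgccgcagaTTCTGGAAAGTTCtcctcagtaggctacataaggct

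Among other folding genes, a collagen chaperone did change. Serpinh1 (M69246_at), known as Hsp47, folds procollagen in the endoplasmic reticulum and is not a member by its symbol. Its lowest, median and highest values were 8.31, 8.42 and 8.60 in injected, 8.30, 8.43 and 8.59 in IntermediateCORT, 8.56, 8.69 and 8.81 in LowCORT, and 8.18, 8.38 and 8.54 in Sham animals. All LowCORT animals lay above all Sham animals, and the LowCORT range met only the top of the injected and IntermediateCORT ranges. Serpinh1 rose by 0.33 in LowCORT against Sham (SE 0.04, adjusted p = 3.52e-06). It fell by 0.29 in IntermediateCORT against LowCORT (SE 0.05, adjusted p = 1.09e-04) and by 0.27 in injected against LowCORT (SE 0.04, adjusted p = 5.51e-04). These 3 comparisons share the LowCORT animals.

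Markers of other cell types were set beside it. Of the 8 probe sets of fibroblast and meninges markers, only those of Dcn, a matrix proteoglycan, passed in these 3 comparisons: 2 rose in LowCORT against Sham, 3 fell in IntermediateCORT against LowCORT and 1 in injected against LowCORT, while the 5 probe sets of Col1a1, Col1a2 and Col3a1 gave −0.05 to 0.04 in LowCORT against Sham. The mean log2 value of the list lay between 6.99 and 7.20 in injected, 6.91 and 7.12 in IntermediateCORT, 7.11 and 7.43 in LowCORT, and 6.97 and 7.19 in Sham animals. Of 9 probe sets of microglia and macrophage markers, 2 rose in LowCORT against Sham, 3 fell in IntermediateCORT against LowCORT and 1 fell in injected against LowCORT, Fcgr2b having passed in all 3 (0.54, −0.60 and −0.43). The mean of that list lay between 7.43 and 7.84 in injected, 7.41 and 7.76 in IntermediateCORT, 7.57 and 7.98 in LowCORT, and 7.38 and 7.75 in Sham animals. Of 5 probe sets of endothelial and pericyte markers, that of Slco1a4 rose in LowCORT against Sham by 0.56 and fell in IntermediateCORT against LowCORT by 0.59, and gave −0.25 in injected against LowCORT (adjusted p = 0.532). The mean of that list lay between 7.68 and 7.99 in injected, 7.67 and 7.96 in IntermediateCORT, 7.87 and 8.04 in LowCORT, and 7.71 and 7.83 in Sham animals. In LowCORT against Sham the median difference was −0.24 over 12 probe sets of CA1 pyramidal and other neurons, of which 0 passed. It was −0.15 over 7 of dentate granule and CA3 neurons and −0.22 over 6 of interneurons, and 1 fell in each. Medians were −0.20 for astrocytes, −0.21 for choroid plexus, 0.01 for oligodendrocytes and 0.002 for blood, with 0 passing in that comparison. In IntermediateCORT against LowCORT, Hpca of the CA1 list rose by 0.53 (adjusted p = 0.00632). Calb1 of the dentate and CA3 list rose by 0.60 (adjusted p = 9.04e-04) in the same comparison, and 1 of 11 oligodendrocyte probe sets fell. In injected against LowCORT 1 of 2 blood probe sets rose. In tissue of mixed cells, more or fewer cells of a type and more or less RNA per cell cannot be told apart, and the part of such cells in the change of Serpinh1 was not tested. The Serpinh1 promoter, at chr1:163062977-163063226 on the minus strand of GRCr8, also holds a heat shock triplet, in capitals.
Serpinh1 promoter: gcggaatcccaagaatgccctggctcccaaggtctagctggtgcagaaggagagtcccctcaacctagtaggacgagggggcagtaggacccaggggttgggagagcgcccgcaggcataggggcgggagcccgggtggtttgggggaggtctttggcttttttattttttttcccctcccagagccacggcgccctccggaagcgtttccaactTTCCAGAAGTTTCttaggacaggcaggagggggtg

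The other genes around the members gave few calls. Of 17 probe sets of co-chaperones, heat shock regulators and steroid receptors, 1 rose in LowCORT against Sham and 0 passed elsewhere. It belonged to Nr3c2, the mineralocorticoid receptor (M36074_g_at), with a lowest, median and highest value of 7.84, 8.42 and 8.81 in injected, 8.04, 8.42 and 8.53 in IntermediateCORT, 8.34, 8.65 and 8.99 in LowCORT, and 7.84, 8.31 and 8.89 in Sham animals. LowCORT was highest, with overlap. Nr3c2 rose by 0.44 (SE 0.11, adjusted p = 0.0218), and the difference was 0.40 (adjusted p = 0.053) without the arrays that stood apart. Its second probe set, M36074_at, gave 0.28 (adjusted p = 0.128), and the glucocorticoid receptor Nr3c1 gave 0.00 (rc_AA893618_s_at) and −0.02 (rc_AI137538_at).

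Of 13 probe sets of the unfolded protein response and endoplasmic reticulum folding, only Serpinh1 passed, in the 3 comparisons given. Hyou1 (rc_AI009098_at), a large Hsp70 relative of that compartment, gave −0.28 in IntermediateCORT against LowCORT (SE 0.12, adjusted p = 0.284). Its other probe set, U41853_at, gave 0.003 (adjusted p = 0.988). Of 11 probe sets of other folding factors, 0 passed. Cryab (X60351cds_s_at), a small heat shock protein of glia and lens, gave −0.40 in LowCORT against Sham (SE 0.12, adjusted p = 0.0693). Grpel1 (U62940_at), the exchange factor of mitochondrial Hsp70, gave −0.21 in injected against IntermediateCORT (adjusted p = 0.152).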

How the data were processed

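Log2 expression values for 8799 probe sets on 39 arrays were used as deposited by the authors. The submitters' processing notes list MAS5, RMA and R 2.7.1, with no word on which step each did. The log base was read from the range of values, 2.82 to 14.37. No further normalization was applied. Arrays carry no read depth, and their number limits precision. Groups came from the labels. Control probe sets (59) and those with a mean under the 30th percentile (6.28) were left out of the tests, leaving 6118. Differences were fitted by limma 3.58.1 (R 4.3.3) from a single model of the 4 groups that left 35 residual degrees of freedom. Tests were two-sided. P-values were adjusted by Benjamini-Hochberg over all probe sets tested, and a call needed an adjusted p under 0.05. Symbols came from the platform table, and 82 of 82 members matched the GRCr8 gene table. A further 14 probe sets joined a symbol of these families to another symbol and were not named. All steroid receptor chaperone probe sets were named, along with those of the smallest p in each other family. Hspa5 (M14050_s_at) and Dnajb9 (rc_AI011998_at) were named after their values were seen. An array stood apart when its median correlation with the others lay over 3 scaled median absolute deviations below the median. The members, lists and tests were chosen with earlier results of these data known. Alternatives were array weights, other filters, quantile normalization, a trended robust variance, subject order or the 3′ minus 5′ differences as covariates, only the groups compared, and the arrays that stood apart left out. The fit was tested on simulated data.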

Additional observations from a re-analysis of the deposited data

Results flagged for a closer look

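Single animals lay far from the rest of their group in 19 of the 220 groups of values examined, by Dixon's test at its 95% level, at which chance gives about 1 in 20. Of the 19, 11 came from arrays that stood apart, 8 of them from Sham 6. Sham 6 was the lowest of its group for Stip1 at 6.41, where the next Sham animal had 8.38, for Fkbp2 at 8.69 (AA684963_at) and 9.46 (C06598_at), and for Ppib at 7.92 (AF071225_at) and 9.46 (rc_AA818487_s_at). It was also lowest for Canx at 5.72 (rc_AA893328_at) and for Hsp90ab1 at 11.61 (rc_AI007820_s_at) and 10.87 (S45392_at). Injected 34 was lowest for Hsph1 at 9.66 (rc_AI236601_at) and for Hsp90ab1 at 12.75 (rc_AI236795_s_at), and injected 35 was highest for Hspb1 at 9.91 (rc_AI176658_s_at).

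The other 8 came from animals whose arrays did not stand apart. IntermediateCORT 19 was lowest for Fkbp1b at 7.73 and highest for Fkbp2 at 10.90 (C06598_at) and for Hyou1 at 9.70 (rc_AI009098_at). IntermediateCORT 11 was lowest for Dnajb1 at 9.01 (rc_AA945704_at). LowCORT 20 was highest for Cct6a at 7.77 and lowest for Calr at 8.16 (X53363cds_s_at) and for Dnajb9 at 5.99, where the next LowCORT animal had 7.40. LowCORT 21 was highest for Hsp90b1 at 10.73 (S69315_at).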

How the results depend on the processing

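No paired analysis was possible because each subject number belongs to a single animal. Of 80 alternative counts of called members, 72 stayed at 0. The count became 1, Fkbp1b, with the 3′ minus 5′ differences as covariates in LowCORT against Sham, in IntermediateCORT against LowCORT and in the F test, and with the beta-actin difference alone or with both covariates and no arrays that stood apart in the first 2 of these. It became 1, Hspb1, with array weights in IntermediateCORT against LowCORT. Leaving out the arrays that stood apart left 0 members called by limma in LowCORT against Sham and in IntermediateCORT against LowCORT. An unadjusted p under 0.05 was then reached by 3 and 8 members, against 2 and 6 as reported. The share of all probe sets under that setting is not given here, so these counts are not read further. Over all alternatives the calls among all probe sets ran from 14 to 50 (21 as reported) in injected against LowCORT, 103 to 342 (131) in IntermediateCORT against LowCORT, 86 to 261 (103) in LowCORT against Sham, 1 to 37 (14) in injected against Sham, 0 to 105 (12) in injected against IntermediateCORT, 1 to 12 (1) in IntermediateCORT against Sham and 116 to 307 (139) in the F test.

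Of 520 alternative values of named differences, 500 kept their direction and their side of the threshold, 11 passed it newly and 2, both of Nr3c2, lost it. Those of Nr3c2 were 0.36 (array weights) and 0.40 (without the arrays that stood apart). Of the 11, 4 were of Cryab (−0.40 to −0.45). A further 7 changed sign and passed under neither setting: injected minus IntermediateCORT for Fkbp2 (AA684963_at, 0.0042) without the arrays that stood apart and for Canx (L18889_at, 0.10) with covariates, injected minus LowCORT for Fkbp2 (C06598_at, 0.0089 with covariates and 0.061 without those arrays), LowCORT minus Sham for Cct6a (−0.0128, array weights), and injected minus Sham with covariates for Canx (rc_AA893328_at, 0.0479) and Calr (X53363cds_s_at, 0.0333). The median r of the cytosolic pairs was 0.333 within injected and 0.195 within IntermediateCORT animals, and that of the endoplasmic reticulum pairs was 0.0195 within IntermediateCORT. The cause of these shifts was not tested.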
